A study of Mus musculus with 6 samples.

Results

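The genes described here are 33 genes of the endoplasmic reticulum (ER) and its unfolded protein response, taken by symbol from a deposited table of 55334 mouse gene IDs. Each of the 33 symbols matched 1 row. They fall by role into 11 chaperones and co-chaperones, 7 disulfide isomerases and reductases, 8 genes of ER-associated degradation, 4 stress sensor and Xbp1 genes, and 3 genes of the translocation channel. RNA came from Lewis lung carcinoma cells, a mouse lung cancer line, made to express GFP, a green fluorescent protein. They had received a scrambled guide RNA (group Scramble, 3 libraries) or 1 that targets Jag2, which encodes a Notch ligand (group JAG2KO, 3 libraries). Both groups were grown as flank tumours in mice, dissociated with Liberase and sorted as living GFP-positive, CD45-negative cells. Mouse strain, sex and age, the endpoint, and whether the edited cells were 1 clone or a pool, were not given in the sources used here. No label ties a library to its own mouse either. The p-values therefore rest on the spread between these libraries alone, which may be technical.

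The ER is where secreted and membrane proteins enter the secretory pathway, are folded, glycosylated and linked by disulfide bonds, and from which proteins that fail to fold are returned to the cytosol for degradation. When unfolded proteins build up, the membrane sensors IRE1 (gene Ern1), ATF6 and PERK (gene Eif2ak3) signal to the nucleus. IRE1 splices the Xbp1 messenger RNA, ATF6 is cut to release a transcription factor, and PERK slows translation. Their targets are largely the chaperone, isomerase and degradation genes listed here, many through a promoter sequence called the ER stress response element. Cells that secrete much protein, such as plasma cells, are known for a high level of these genes.

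Total counts ran from 37036772 to 43923565 per library, and TMM factors from 0.993 to 1.01. Across genes, which are not independent replicates, log2 CPM (counts scaled to a common library size) correlated at r = 0.982 to 0.987 within groups and at 0.962 to 0.968 across them. Jag2 itself had 1.52, 1.1 and 1.02 CPM in Scramble replicates 1, 2 and 3. The libraries named JagKO2, JagKO3 and JagKO4 had 0.514, 0.799 and 1.11 CPM. These groups overlap, and the difference did not pass (log2 fold change -0.58, adjusted p = 0.318 by edgeR). An edited gene can still be transcribed, so these counts do not show whether the knockout worked. Some sets of cell type markers differed between the groups. Macrophage markers (4 of 12 higher, 1 lower) summed to 64.9 to 76.3 CPM in Scramble and 100.3 to 122 CPM in JAG2KO. Endothelial markers (6 of 10 higher) summed to 24 to 28.3 CPM and 41.9 to 59.4 CPM. Pericyte and fibroblast markers (5 of 10 higher, Fap lower) summed to 1182 to 1352 CPM and 1551 to 2575 CPM, mostly from Dcn, Lum, Col1a1 and Col1a2. Of these, Dcn and Lum were not among the genes called. B and plasma cell markers summed to 5.39 to 8.11 CPM and 19.7 to 24.9 CPM, mostly from Ighm, while Tnfrsf17 was at 0 in all 6 libraries. Markers of T and NK cells stayed at or under 2.21 CPM in sum and those of neutrophils at or under 3.49 CPM, both with overlap between the groups. Of the epithelial markers, Krt18 and Krt8 made up nearly all of 393 to 400.5 CPM in Scramble, and Krt18 nearly all of 284 to 339 CPM in JAG2KO, where Krt8 and Krt19 were lower. The lung marker Nkx2-1 was at 0 throughout. Whether the tumour cells themselves express some of these markers, such as Krt18 or Dcn, was not tested. The part of other cells in the results below was not tested either. In bulk RNA, fewer cells of a type and less RNA per cell cannot be told apart.

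Most chaperone genes and some disulfide isomerase genes were lower in JAG2KO, as were 1 degradation gene and 1 channel gene, and the sensor gene Atf6 was higher. Of the 33 genes, 32 were abundant enough to test and 1, Derl3, was not. In the edgeR quasi-likelihood test, 13 of the 32 were lower, 1 was higher and 18 did not pass an adjusted p of 0.05. Over all 16049 genes tested, 12.5% were lower, 11.8% higher and 24.3% called in either direction. The median log2 fold change of the 32 genes was -0.22, beside 0.00 over all genes, and 26 of the 32 values were below 0. The 3 libraries of a group lay wholly apart from those of the other group for 16 of the 32 genes, 15 of them lower in JAG2KO. Of all genes tested 40.3% lay apart in this way, and 20.9% of all genes tested were apart and lower in JAG2KO. Most of these genes are abundant, and abundant genes are called more often. Of the 21 with a mean of at least 100 CPM, 9 were lower and 1 was higher, where 17.1% of the 2364 genes at that level were lower and 31.6% were called. The changes were modest in size. Among the 13, Dnajb9 changed most and fell by 37.4%, and Hspa13 changed least and fell by 16.1%.

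**Figure D1:**
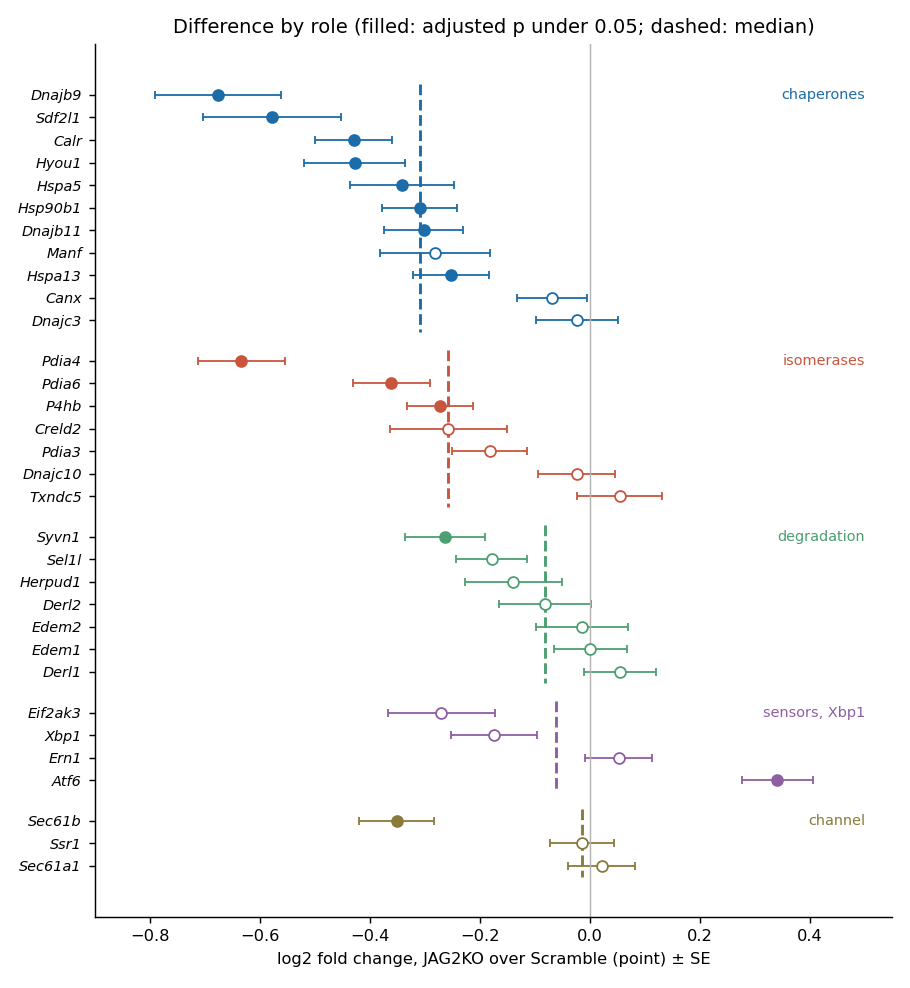
Log2 fold change of each of the 32 tested genes, JAG2KO over Scramble (x axis, point, with the standard error as bar), by role (y axis). Filled points passed an adjusted p of 0.05 and dashed lines mark the median of each role. The medians run from -0.31 for the chaperones to -0.01 for the channel genes, an order that changes once GC and length trends are removed, and Atf6 is the single filled point right of 0.

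The roles differed in how many members fell. Over all genes tested 12.5% were lower and 11.8% higher, and 17.1% of those with at least 100 CPM were lower. Among chaperones and co-chaperones 8 of 11 were lower and 0 higher, with a median log2 fold change of -0.31. Among disulfide isomerases and reductases 3 of 7 were lower and 0 higher (median -0.26). Of the degradation genes 1 of 7 tested (14.3%, near the share over all genes) was lower and 0 higher (median -0.08). None of the 4 sensor and Xbp1 genes was lower and 1 was higher (median -0.06), and 1 of 3 channel genes was lower (median -0.01). In summed level the chaperones held 4630 to 5417 CPM in the Scramble libraries and 3811 to 4382 CPM in the JAG2KO libraries, and the isomerases 3453 to 3870 CPM and 2969 to 3204 CPM. The groups did not overlap for either sum. For the degradation genes the sums were 540.4 to 579 CPM and 507 to 549 CPM, and for the channel genes 724 to 764 CPM and 708 to 725 CPM, both with overlap. Sensors and Xbp1 summed to 392 to 422 CPM in Scramble and 415 to 448 CPM in JAG2KO, which also overlap. These counts and medians describe the roles, and a difference between roles was not tested. Without Scramble replicate 2 the count of lower chaperones was 5 of 11 and the isomerase median -0.15. The degradation median was -0.03 without Scramble replicate 2, -0.03 without JagKO4 and -0.16 without JagKO3, and 0 of its genes were lower without Scramble replicate 1, Scramble replicate 2 or JagKO4, against 2 without JagKO2. With GC and length trends removed, the channel median was -0.16, below those of the sensors and Xbp1 (-0.12) and the degradation genes (-0.08), so the order of these 3 roles depends on that step.

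**Figure D2:**
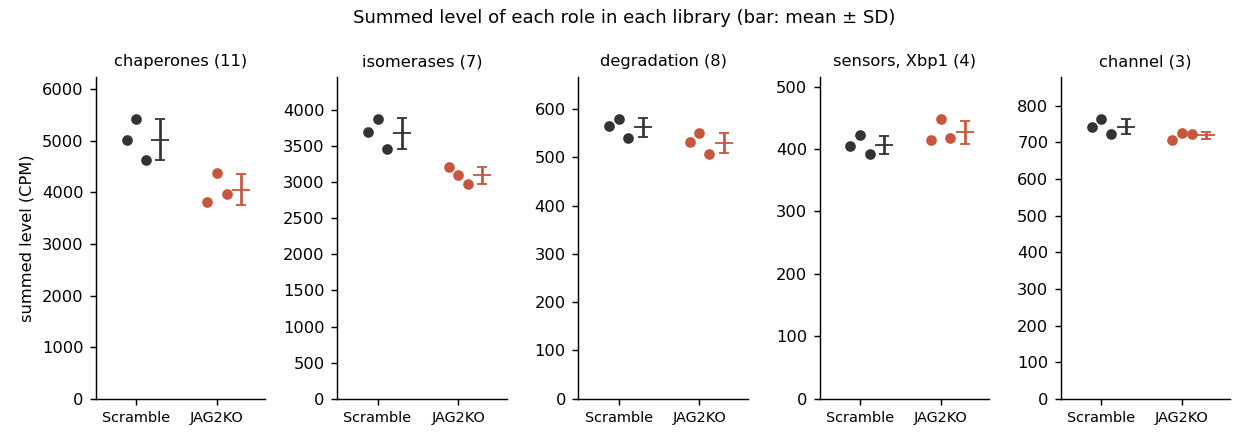
Summed CPM of the genes of each role (y axis, starting at 0 in each panel) in the 3 Scramble and 3 JAG2KO libraries (points), with the group mean ± SD beside them. The number of genes summed stands in brackets, and the 2 left panels are those without overlap between groups.

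Levels of different genes are comparable only per length, here as CPM per kilobase of all annotated exons of the gene. On that scale P4hb (341 ± 10.4 in Scramble, mean ± SD, n = 3), Calr (336 ± 19.2) and Hspa5 (330.0 ± 35.8) stood highest, with overlapping mean ± SD. Pdia3 (280.1 ± 23.1), Pdia6 (233 ± 18.4) and Hsp90b1 (214 ± 14.4) followed, and the mean ± SD of the last 2 overlap although their means differ by more than either SD. Chaperones and isomerases took the first 9 places. The sensors stood near the end, with 14.3 ± 0.71 for Atf6, 14.2 ± 0.574 for Ern1 and 3.22 ± 0.0264 for Eif2ak3, the lowest of the 32 tested. Derl3, a derlin gene known from secretory tissues, was all but silent, with 0.0459 to 0.178 CPM in the Scramble libraries and 0.135 to 0.3001 CPM in the JAG2KO libraries. In JAG2KO the first 7 places held the same genes, and Atf6 moved from place 28 to place 23.

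Some of the 33 genes share a promoter sequence. As they were chosen as genes of the unfolded protein response, which is known for that sequence, its share among them is a description and not independent of the choice. RefSeq promoter windows on GRCm38.p6, from 250 bases before to 50 after a start site, were on hand for 27 of the 33 genes, in 30 windows. Windows for Atf6, Derl1, Hspa13, Hyou1, Manf and Sec61a1 were not used here. The ER stress response element was searched on both strands as CCAAT and CCACG set 9 bases apart, all 10 letters exact. It was present for 9 of the 27 genes (33.3%), against 37 of 27025 genes with a window (0.137%). The 10 copies are printed because they mark which genes carry the element, each read in the direction that puts CCAAT first, with the 10 fixed letters in capitals and 5 bases on each side. First stand the 5 genes that fell, Hsp90b1 with 2 copies.
Hspa5: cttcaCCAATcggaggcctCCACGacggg
Hsp90b1: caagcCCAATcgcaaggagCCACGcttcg
Hsp90b1: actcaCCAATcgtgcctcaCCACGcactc
Calr: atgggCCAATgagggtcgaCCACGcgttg
Pdia6: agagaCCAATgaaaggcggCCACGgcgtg
Syvn1: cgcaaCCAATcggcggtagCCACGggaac
They lie at chr2:34772020-34772048, chr10:86705633-86705661, chr10:86705528-86705556, chr8:84847070-84847098, chr12:17266486-17266514 and chr19:6046527-6046555, all on the plus strand but the first of Hsp90b1. The second copy of Hsp90b1 and that of Calr stand opposite to the gene. The next 3 genes were tested and did not pass, and Derl3, the last, was too low to test.
Canx: attgaCCAATcaccacgctCCACGaagaa
Dnajc3: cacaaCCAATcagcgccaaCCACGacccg
Creld2: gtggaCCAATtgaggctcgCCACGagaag
Derl3: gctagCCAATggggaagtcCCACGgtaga
These lie at chr11:50325795-50325823, chr14:118937822-118937850, chr15:88819515-88819543 and chr10:75893237-75893265, all on the minus strand but that of Dnajc3. Those of Creld2 and Derl3 stand opposite to the gene.

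The chaperones that fell include Calr and genes of the heat shock protein families. Calr encodes calreticulin, which binds monoglucosylated glycoproteins and calcium (chromosome 8, 84841850 to 84846934, GRCm38). It stood at 977, 1018 and 909 CPM in Scramble replicates 1, 2 and 3 and at 670.5, 777 and 709 CPM in JagKO2, JagKO3 and JagKO4. Every JAG2KO value lay below every Scramble value, and Calr fell by 0.43 on the log2 scale (adjusted p = 0.00096 by edgeR, SE 0.07). Dnajb9 encodes ERdj4, a co-chaperone of BiP that also holds IRE1 inactive (chromosome 12, 44205559 to 44210326). Its levels were 48, 49.9 and 38.8 CPM in Scramble and 25.2, 32.2 and 28.1 CPM in JAG2KO, the largest fall of the 33 genes at 0.68 on the log2 scale (adjusted p = 0.0012 by edgeR, SE 0.11). Hyou1, a large HSP70 relative that exchanges nucleotide on BiP, went from 389, 465 and 388 CPM to 282, 346.5 and 296 CPM and fell by 0.43 (adjusted p = 0.00539 by edgeR, SE 0.09). For Sdf2l1, which joins BiP and ERdj3 in a complex, the Scramble libraries held 61.1, 79.1 and 70 CPM and the JAG2KO libraries 44, 56.8 and 40.2 CPM. JagKO3 was the highest of the 3 JAG2KO libraries for Hyou1 and Sdf2l1, and still under the lowest Scramble library. Sdf2l1 fell by 0.58 on the log2 scale (adjusted p = 0.00571 by edgeR, SE 0.13). Hsp90b1, the gene of the ER HSP90 protein GRP94, had 881, 912 and 799 CPM in Scramble against 667, 738 and 687 CPM in JAG2KO, a fall of 0.31 (adjusted p = 0.00613 by edgeR, SE 0.07). An opposite-strand pseudogene covers 10.3% of its annotated exon bases and, as the counting may not have used strand, could affect its count. Single opposite-strand genes likewise cover 8.16% for Sec61a1, 8.05% for Eif2ak3 and 6.92% for Txndc5.

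Hspa5 encodes BiP, the main HSP70 chaperone of the ER and the protein that restrains all 3 sensors in unstressed cells (chromosome 2, 34771970 to 34777547). It is given in full because of that role, although the rule for naming genes did not reach it. Its 3 Scramble libraries had 1398, 1546 and 1243 CPM and its JAG2KO libraries 967, 1228 and 1110 CPM. The groups came close, since Scramble replicate 3 and JagKO3 differed by little, but did not overlap. Hspa5 fell by 0.34 on the log2 scale (adjusted p = 0.0206 by edgeR, SE 0.09). It no longer passed when Scramble replicate 1, Scramble replicate 2 or JagKO4 was left out (adjusted p = 0.0717, 0.108 and 0.0582). Dnajb11, the BiP partner ERdj3, had group means of 113 ± 7.24 CPM in Scramble and 91.4 ± 5.87 CPM in JAG2KO (n = 3 each) and lost its call without Scramble replicate 2 (adjusted p = 0.0618). Hspa13, another HSP70 family gene, had 119 ± 8.16 CPM and 100.2 ± 4.67 CPM, and like Hspa5 did not pass with Scramble replicate 1, Scramble replicate 2 or JagKO4 left out (adjusted p = 0.0553, 0.121 and 0.0944).

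The other 3 chaperone genes did not pass the test. Canx, the membrane-bound partner of calreticulin, had 719.5 ± 37.9 CPM in Scramble against 686 ± 31.2 CPM in JAG2KO (log2 fold change -0.07, adjusted p = 0.482 by edgeR, SE 0.06). Dnajc3, the co-chaperone p58IPK, had the smallest difference of this role, with 123, 134 and 111 CPM in the Scramble libraries and 120.5, 124 and 117 CPM in the JAG2KO libraries. All 3 JAG2KO values of Dnajc3 lay within the Scramble range, and the log2 fold change was -0.02 (adjusted p = 0.855 by edgeR, SE 0.07). Manf, a secreted ER stress protein, stood at 187 ± 21.1 CPM and 154 ± 20.4 CPM with a log2 fold change of -0.28 (adjusted p = 0.0596 by edgeR, SE 0.10). Manf passed without JagKO3 (adjusted p = 0.0129), without a low-count filter (0.00242) and in DESeq2 (0.0319). The log2 fold changes of the 2 lectin chaperones were -0.43 for Calr and -0.07 for Canx, and the difference between them was not tested.

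**Figure D3:**
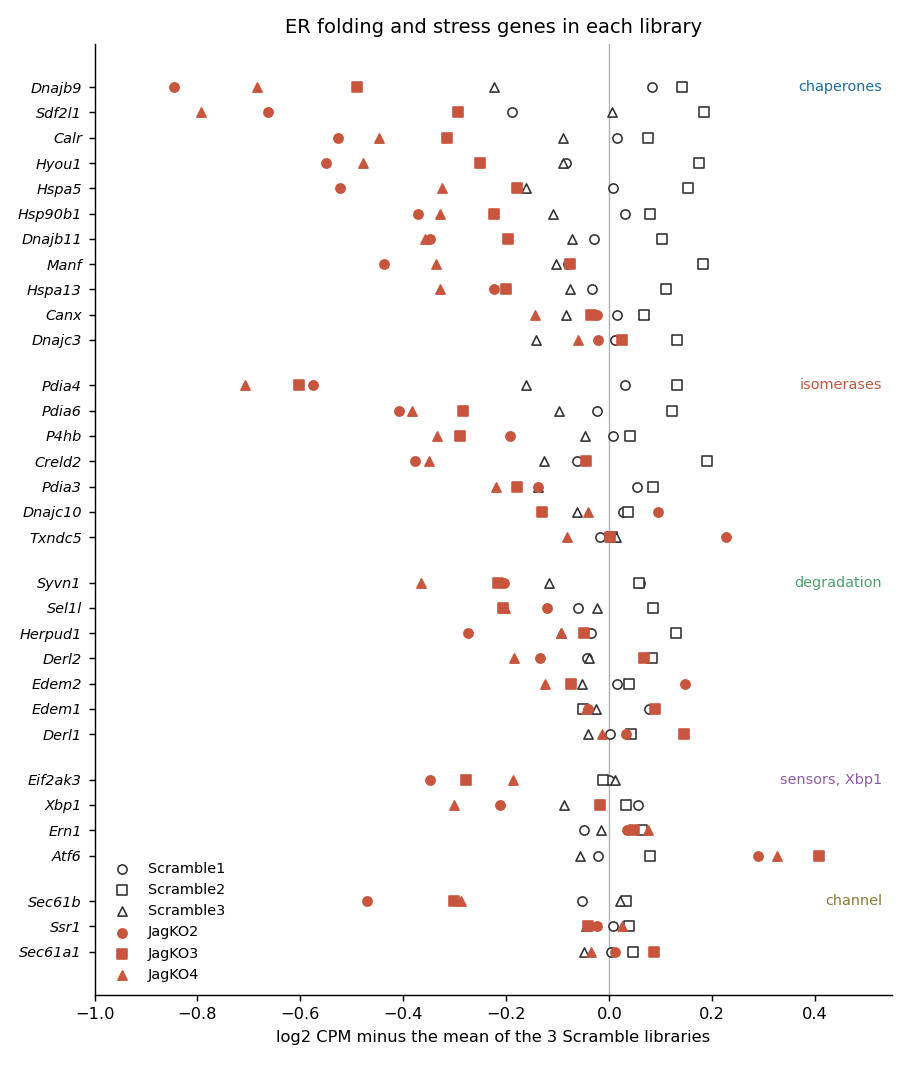
Log2 CPM (prior count 2) of each tested gene in each library, minus the mean of the 3 Scramble libraries (x axis), by role (y axis). Open symbols are Scramble libraries and filled symbols JAG2KO libraries. For the genes at the top of the chaperone and isomerase blocks all 3 filled symbols lie left of all open ones, and Atf6 shows the opposite order.

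Disulfide isomerases form and reshuffle the disulfide bonds of folding proteins. Pdia4, which encodes the isomerase ERp72 (chromosome 6, 47796141 to 47813430), showed the smallest p of all 33 genes. The Scramble libraries held 339, 364 and 297 CPM and the JAG2KO libraries 223, 219 and 203 CPM, a fall of 0.63 on the log2 scale (adjusted p = 0.000131 by edgeR, SE 0.08). The 3 JAG2KO values lay close together and well under the lowest Scramble value. Pdia6, the isomerase P5, which also attenuates IRE1 signalling, had 856, 948 and 814 CPM in Scramble and 656, 715 and 668 CPM in JAG2KO. It fell by 0.36 (adjusted p = 0.00277 by edgeR, SE 0.07). P4hb, the gene of protein disulfide isomerase itself and of the beta subunit of collagen prolyl 4-hydroxylase, went from 979.9, 1003 and 944 CPM to 853, 797 and 774 CPM, a fall of 0.27 (adjusted p = 0.00662 by edgeR, SE 0.06). For Pdia6 and P4hb the groups again did not overlap. The other 4 isomerase and reductase genes did not pass. Pdia3, the isomerase ERp57 that works with calnexin and calreticulin, had 879 ± 72.5 CPM in Scramble and 775 ± 22.1 CPM in JAG2KO (adjusted p = 0.0743 by edgeR, SE 0.07) and passed without Scramble replicate 3 (adjusted p = 0.0232). Creld2, an ER stress-inducible gene with isomerase activity, had 60.8 ± 7.22 CPM and 50.9 ± 6.73 CPM (adjusted p = 0.101 by edgeR, SE 0.11), and passed without JagKO3 (adjusted p = 0.025) or without a low-count filter (0.0255). Dnajc10 encodes ERdj5, a reductase that opens disulfides ahead of degradation. It had the smallest difference of the role, with 151, 152 and 142 CPM in the Scramble libraries and 158, 135 and 144 CPM in the JAG2KO libraries, which overlap (log2 fold change -0.02, adjusted p = 0.844 by edgeR, SE 0.07). Txndc5, the isomerase ERp46, was the 1 gene of this role with a value above 0 (0.05, adjusted p = 0.662 by edgeR, SE 0.08). Its highest library was JagKO2 at 470.1 CPM, and without JagKO2 its log2 fold change was -0.04.

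Degradation genes retrotranslocate and ubiquitinate misfolded proteins, and here most showed little difference. Syvn1, the ubiquitin ligase HRD1 at the centre of the retrotranslocation complex (chromosome 19, 6046576 to 6053712), was the 1 that fell. It measured 105.5, 105 and 93.3 CPM in Scramble and 87.8, 87.2 and 78.6 CPM in JAG2KO, lower by 0.26 on the log2 scale and without overlap (adjusted p = 0.0217 by edgeR, SE 0.07). Syvn1 lost its call with any of the same 3 libraries as Hspa5 left out, in that order (adjusted p = 0.104, 0.103 and 0.1). Sel1l, the adaptor of HRD1, had 99.2 ± 5.22 CPM and 87.7 ± 2.96 CPM, groups that did not overlap, with a log2 fold change of -0.18 (adjusted p = 0.0667 by edgeR, SE 0.07). Sel1l passed without JagKO2 (adjusted p = 0.041) and once trends on GC content and length were removed (0.00804). Edem1, a mannosidase-like lectin that hands glycoproteins to the complex, had 120.5, 110.2 and 112 CPM in the Scramble libraries and 111, 121 and 111 CPM in the JAG2KO libraries. The values interleave, and the log2 fold change was 0.00 (adjusted p = 0.993 by edgeR, SE 0.07). Its relative Edem2, the derlin channel genes Derl1 and Derl2, and the membrane scaffold gene Herpud1 had log2 fold changes of -0.01, 0.06, -0.08 and -0.14, with adjusted p from 0.285 to 0.927 in edgeR.

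Of the sensor genes Atf6 was higher in JAG2KO, and the others did not pass. Atf6 (chromosome 1, 170704674 to 170867771) encodes the sensor that is cut in the Golgi to yield a transcription factor for chaperone genes. It had 129.6, 139 and 127 CPM in the Scramble libraries and 161, 175 and 165 CPM in JagKO2, JagKO3 and JagKO4. All JAG2KO values lay above all Scramble values, and Atf6 rose by 0.34 on the log2 scale (adjusted p = 0.00248 by edgeR, SE 0.06). Ern1, the gene of IRE1, had 112, 121 and 114.5 CPM and 119, 119.7 and 122 CPM. Its groups overlapped (log2 fold change 0.05, adjusted p = 0.579 by edgeR, SE 0.06). Eif2ak3, the gene of PERK, had 19.4, 19.2 and 19.6 CPM in Scramble and 15.2, 16 and 17 CPM in JAG2KO. These do not overlap, but the difference of -0.27 did not pass (adjusted p = 0.0632 by edgeR, SE 0.10) except after removal of GC and length trends (adjusted p = 0.0414). Xbp1, the transcription factor gene whose messenger RNA IRE1 splices, had 145, 143 and 131 CPM and 120.3, 138 and 113 CPM. JagKO3 lay within the Scramble range, and the log2 fold change of -0.17 did not pass (adjusted p = 0.133 by edgeR, SE 0.08), while without JagKO3 it did (adjusted p = 0.0335). Counts per gene do not tell spliced from unspliced Xbp1, cut from uncut ATF6, or phosphorylated from unphosphorylated PERK and IRE1, so the activity of the sensors was not measured.

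The channel genes build the pore and the accessory complex through which new chains enter the ER. Sec61b, the small beta subunit (chromosome 4, 47474658 to 47483242), had 105, 111 and 110.3 CPM in Scramble and 78.5, 88.2 and 89.1 CPM in JAG2KO, and fell by 0.35 on the log2 scale without overlap (adjusted p = 0.00294 by edgeR, SE 0.07). Sec61a1, the pore subunit, had 233, 239.8 and 225 CPM and 234, 247 and 227 CPM (log2 fold change 0.02, adjusted p = 0.842 by edgeR, SE 0.06). Ssr1, a subunit of the translocon-associated protein complex, had 403, 412 and 389 CPM and 395, 390.0 and 408 CPM (log2 fold change -0.01, adjusted p = 0.89 by edgeR, SE 0.06). For both genes the groups overlapped. A difference between Sec61b and Sec61a1 was not tested.

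Genes fell both with and without the element. Of the 8 tested genes with all 10 letters, 5 were lower and 3 did not pass (median log2 fold change -0.29). Of the 18 tested genes with a window but without all 10 letters, 6 were lower and 12 did not pass (median -0.18). Canx and Dnajc3 carry the same 10 letters as Hspa5, and had values near 0. Conversely Dnajb9, Sdf2l1, Dnajb11, P4hb and Sec61b fell and match at most 8 of the 10 letters, while the promoter of Pdia4 matches 9. At 9 or more letters, a looser rule set after the exact matches were seen, 14 of the 27 genes matched (51.9%), against 1.72% of all genes with a window. Outside the 33 genes, 11 tested genes had the exact element, of which 0 were lower and 1 was higher in edgeR, where 12.5% of all genes tested were lower. The related element ERSE-II, ATTGG and CCACG set 1 base apart, where ATTGG is CCAAT read from the other strand, was found for Dnajb11, after the start site, and for Herpud1 (12 of 27025 genes, 0.0444%). The unfolded protein response element TGACGTGG was found for Txndc5 alone (193 of 27025 genes, 0.714%). Outside the 33 genes, 2 of 7 tested genes with ERSE-II (28.6%) and 24 of 110 with the unfolded protein response element (21.8%) were lower. It holds the core ACGTG, which 11 of the 27 genes and 21.8% of all genes had. The amino acid response element, TGATG and AA set 1 base apart, was found for Herpud1 and Txndc5 (4.5% of all genes). The 2 windows below show the elements, in capitals, of 2 genes that did not pass.
Herpud1: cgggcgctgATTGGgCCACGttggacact
Txndc5: gcctcgccgcTGACGTGGcgctagccgc
They lie at chr8:94386368-94386396 on the plus strand and chr13:38528035-38528062 on the minus strand. A match describes letters in the window and is not evidence that a factor binds there, and the lack of a match says nothing of the factor.

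**Figure D4:**
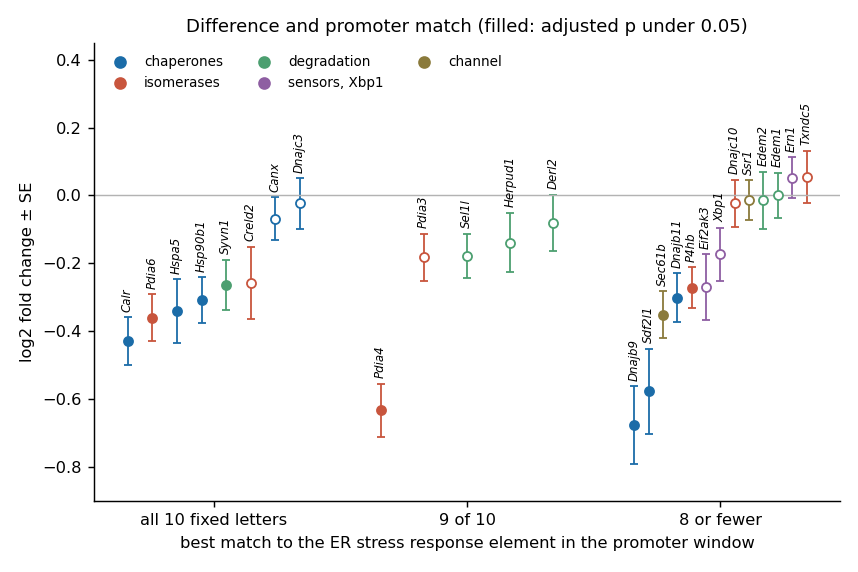
Log2 fold change with its standard error (y axis) of the 26 tested genes that had a promoter window, by the best match to the 10 fixed letters of the ER stress response element on either strand (x axis). Filled points passed an adjusted p of 0.05. Filled and open points occur in all 3 classes, with Dnajb9 and Sdf2l1 lowest among the genes that match 8 letters or fewer.

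Within Scramble most of the genes shared their highest and their lowest library, while in JAG2KO the roles differed. Scramble replicate 2 was the highest of the 3 Scramble libraries for 27 of the 32 tested genes, including all 11 chaperones, and Scramble replicate 3 the lowest for 24. Among the JAG2KO libraries JagKO3 was highest for 19 of the 32 and for 10 of the 11 chaperones, while JagKO4 was lowest for 16 and JagKO2 for 13. JagKO2 was lowest for 6 of the 11 chaperones but highest for 5 of the 7 isomerases. The same counts over all genes tested were not made. Relative to the Scramble mean, the median chaperone stood at 0.01, 0.13 and -0.09 (log2) in Scramble replicates 1, 2 and 3 and at -0.44, -0.20 and -0.34 in JagKO2, JagKO3 and JagKO4. The closest libraries of the 2 groups for the median chaperone were Scramble replicate 3 and JagKO3. The isomerases stood at 0.01, 0.09 and -0.10 and at -0.19, -0.18 and -0.33 in the same order. For the degradation genes the medians ran from -0.04 to 0.06 in Scramble and from -0.13 to -0.05 in JAG2KO. JagKO2 had the highest summed pericyte and fibroblast markers (2575 CPM, against 1551 to 1645 CPM in the other JAG2KO libraries).

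Each gene was also set beside its neighbours on the chromosome, the 15 tested genes on each side with a mean of at least 2 CPM. The stretches so covered differ widely in length, from 0.635 megabases around Syvn1 to 29 megabases around Hspa13. The neighbour median was below 0 for 10 of the 11 chaperone and isomerase genes that fell, all but Hyou1, and ran down to -0.31 for Pdia4. Around Calr, of 30 neighbours 2 were lower and 5 higher, with a median log2 fold change of 0.00, and Calr at -0.43 lay below all 30. Hyou1 and Sdf2l1 likewise lay below all 30 of their neighbours, whose medians were 0.03 and -0.07. Around Dnajb9 7 were lower and 5 higher, with a median log2 fold change of -0.09, and 1 neighbour lay below it. Around Hspa5 4 were lower and 2 higher, with a median log2 fold change of -0.04, and 2 neighbours lay below it. Other genes sat among neighbours that were lower too. Around Sec61b 21 were lower and 2 higher, with a median log2 fold change of -0.40, close to its own -0.35. Around Pdia4 13 were lower and 3 higher, with a median log2 fold change of -0.31, and 3 neighbours lay below it. The neighbours of Syvn1 had a median of -0.24, those of Dnajb11 -0.19, those of Sel1l -0.25 and those of Eif2ak3 -0.26. Atf6 rose among neighbours with a median of -0.11, of which 2 were higher and 3 lower. Over the 13 genes that fell, 12 had a neighbour median below 0, beside 21 of all 32 tested genes. Of the 13, 9 lay at or below the 25th percentile of their neighbours. The other 4 were Sec61b, Syvn1, Dnajb11 and Hspa13, the last 2 with 9 and 10 of 30 neighbours below them. As the 13 were picked for being lower, a low place among their neighbours follows in part from that choice. Whether the gene itself or its segment changed was not tested for any of the 13, and the 25th percentile does not separate the 2.

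**Figure D5:**
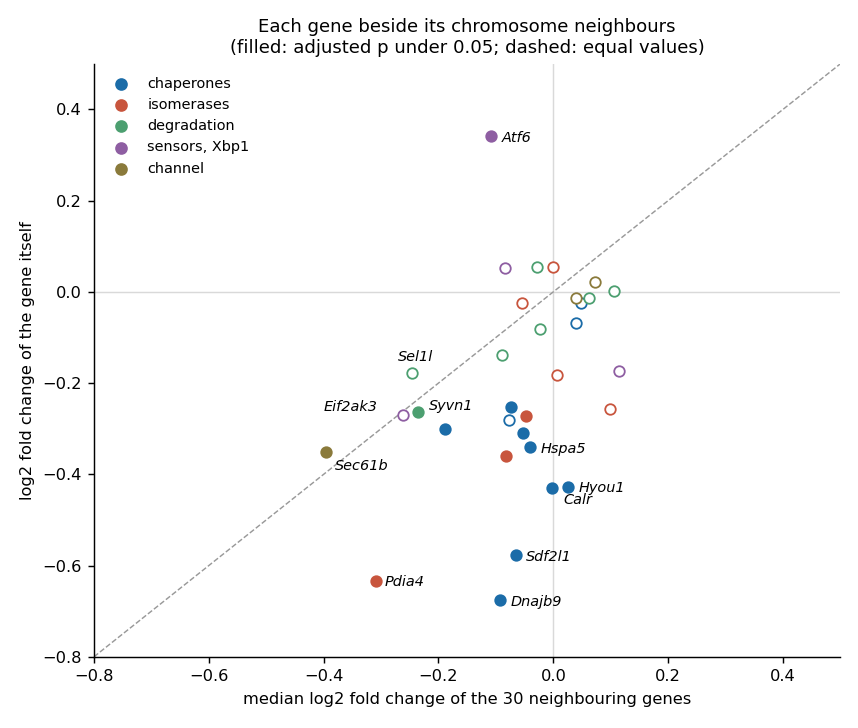
Log2 fold change of each tested gene (y axis) against the median log2 fold change of its 30 neighbouring genes (x axis). On the dashed line the 2 are equal. Calr, Hyou1, Sdf2l1 and Dnajb9 lie far below the line at a neighbour median near 0, Sec61b and Syvn1 lie near the line, and Atf6 lies above it.

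Other genes of the same pathway, 138 outside the 33 (139 symbols were listed, and Vimp is an older symbol of Selenos, which the list also held), were counted in 5 lists. These were drawn up from textbook roles with earlier results of these data known. Of 30 other folding and redox genes 12 (40%) were lower and 1 was higher (median log2 fold change -0.18), where 12.5% of all genes tested were lower. Fkbp10, an ER prolyl isomerase that acts on collagen, fell from 207, 214 and 219 CPM to 33.7, 31 and 32.6 CPM (-2.72 on the log2 scale, adjusted p = 1.72e-10 by edgeR, SE 0.07). Erp44, which retains thiol-bound clients in the early secretory pathway, had 105 ± 2.59 CPM in Scramble against 75.9 ± 0.954 CPM in JAG2KO, and the prolyl isomerase gene Fkbp11 17.3 ± 0.223 CPM and 9.91 ± 0.33 CPM (adjusted p by edgeR of 0.000179 and 0.00022). Ero1l, named after its values were seen because its product reoxidises the isomerases, fell by 0.57 (adjusted p = 0.000874 by edgeR, SE 0.09). Of 14 genes of glycan quality control and ER retrieval 6 (42.9%) were lower and 1 was higher (median -0.19). Kdelr3, a receptor that returns chaperones with a KDEL tail from the Golgi, fell by 0.94 (adjusted p = 2.83e-05 by edgeR, SE 0.10) and Mogs, the glucosidase that trims the first glucose, by 0.63 (adjusted p = 6.2e-05 by edgeR, SE 0.07). Uggt2, a relative of the glucosyltransferase that checks folding, rose by 0.38 (adjusted p = 0.00171 by edgeR, SE 0.07).

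Other degradation, translocation and signalling genes were lower in shares of 20.7%, 9.09% and 23.3%. Of 29 other degradation genes 6 were lower and 0 higher (median -0.02), with Svip (-1.72, a small inhibitor of the pathway), Aup1 (-0.39) and Ube2k (-0.29) at the smallest p (adjusted p by edgeR of 0.00279, 0.00371 and 0.0124). Svip stood low, at means of 2.14 CPM in Scramble and 0.647 CPM in JAG2KO. Of 33 translocon, signal peptidase and oligosaccharyltransferase genes 3 were lower and 2 higher (median -0.04). The oligosaccharyltransferase subunit gene Rpn2 fell by 0.32 (adjusted p = 0.00256 by edgeR, SE 0.06), Tram2 by 0.35 (adjusted p = 0.00451 by edgeR, SE 0.07), and Sec63 rose by 0.21 (adjusted p = 0.023 by edgeR, SE 0.06). Of 30 other stress signalling genes 7 were lower and 1 was higher (median 0.04). Nupr1, Chac1 and Trib3, which are induced downstream of PERK and ATF4, fell by 0.48, 1.21 and 0.85 on the log2 scale (adjusted p by edgeR of 0.00291, 0.00351 and 0.00807). Their levels were low, with means of 29.5, 3.68 and 12.7 CPM in Scramble and 21.2, 1.59 and 7.06 CPM in JAG2KO. The other calls of this list were Eif2s1, Eif2ak1, Atf3 and Creb3l2, lower by 0.23, 0.27, 0.31 and 0.21 (adjusted p by edgeR of 0.0199, 0.0185, 0.0368 and 0.0265), and the heat shock gene Hspa1a, higher by 0.60 (0.0143). Eif2s1 encodes the translation factor subunit that PERK phosphorylates, and Eif2ak1 another kinase of that subunit. Of the genes that did not pass, Atf4, Ddit3 (CHOP) and Ppp1r15a (GADD34) had log2 fold changes of 0.12, -0.11 and 0.06 (adjusted p by edgeR of 0.344, 0.617 and 0.654). The genes from Eif2s1 on were named after their values were seen.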

How the data were processed

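RNA was measured by polyA sequencing in 6 libraries. The values the authors deposited are raw counts of reads for each gene. Per the submitters' processing notes, the tools were STAR 2.7.7a and HTSeq 0.11.2. The genome build, annotation and strand setting were not given in the sources used here. Overlapping and antisense genes may thus share or lose reads. Scramble columns carry the titles' numbers. JAG2KO columns are numbered 2 to 4 and the titles 1 to 3, so these were used as JAG2KO libraries under their column names. Symbols were matched by stable Ensembl ID (55154 of 55334), and positions and lengths come from GENCODE M21 on GRCm38.

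The test was edgeR 4.0.16 under R 4.3.3 (filterByExpr, minimum count 10 and total 15, TMM, quasi-likelihood F test, 4 residual degrees of freedom, two-sided, Benjamini-Hochberg over all 16049 genes, called under 0.05). Standard errors (SE) are the absolute log2 fold change divided by the square root of F. CPM use TMM-scaled library sizes. In every library each tested gene of the 33 had at least 563 counts. A total of 3 counts are worth 0.068 to 0.0811 CPM. No library repeated another (chi-square per degree of freedom at least 12.2 between replicates). The fits were checked on simulated counts. Genes and lists were chosen with earlier results of these data known, so no test over a list was made. Per-library values are given by rule for up to 5 called chaperones, 4 isomerases and 4 degradation genes in order of p, all sensors and channel genes, and the gene with the smallest difference of each role. In other lists the 3 called genes with the smallest p are named. No protein sequences were used here. Other settings tried were DESeq2 1.42.0, limma-voom (limma 3.58.1), RLE factors, scaling by totals, no low-count filter, a filter of CPM of at least 1 in 3 libraries, splines on GC content and length, and leaving out each library.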

Additional observations from a re-analysis of the deposited data

How the results depend on the processing

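No paired analysis was possible because the JAG2KO columns do not carry the numbers of the sample titles. No label in the sources used here pairs a Scramble library with a JAG2KO library, so matching numbers would not show a paired design. Of the 13 genes that were lower, all 13 were lower with RLE factors, library totals alone, no filter, the stricter filter, DESeq2, limma-voom and GC and length trends removed, 10 without Scramble replicate 1, 9 without Scramble replicate 2, 10 without JagKO4 and 13 without any other library. Over all genes tested, 2005 were lower in the main fit, 1377 without Scramble replicate 1, 1349 without Scramble replicate 2 and 1468 without JagKO4. Atf6 was called higher under all 13 alternatives, with log2 fold changes from 0.22 to 0.39. The median of the 32 genes ran from -0.26 to -0.15 with 1 library left out. Signs turned only for genes that had not passed, with values of -0.0958 to 0.0522 for Dnajc3, -0.0397 to 0.1173 for Txndc5, -0.0854 to 0.0273 for Dnajc10, -0.0439 to 0.0515 for Edem1, -0.1004 to 0.0394 for Edem2, -0.0118 to 0.052 for Sec61a1 and -0.0404 to 0.0134 for Ssr1 over the libraries left out, and of -0.0837 for Edem1 and -0.0706 for Ern1 after trend removal and -1e-04 for Edem1 in limma-voom. The cause was not tested. No scaling moved the median of all genes by over 0.1 on the log2 scale. With 3 libraries a group, a gene that did not pass is not shown to be unchanged, and Derl3 was too low in counts to test.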
